A study of Mus musculus with 6 samples.

Results

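The NKR-P1 receptors and their Clr ligands are a small set of lectin-like membrane proteins of natural killer (NK) cells and the cells they meet. The 6 genes described here, the receptor genes Klrb1a, Klrb1b, Klrb1c and Klrb1f and the ligand genes Clec2d and Clec2i, were taken by name from the 37991 genes counted in each library. All 6 passed the filter on low counts, as did 11724 genes in all. RNA was sequenced from NK cells of mouse spleen that carried CD27 and CD11b, proteins whose joint presence marks an intermediate stage of NK cell maturation. There were 3 libraries of the genotype labelled Rroid deficient and 3 labelled wildtype, all on the C57BL6 background; age, the allele behind the deficiency and any pooling of animals are not stated in the labels. The Rroid locus gives rise to a long noncoding RNA and regulates Id2, its neighbour, and the comparison asked what its loss changes in these cells.

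NKR-P1 receptors and Clr proteins are encoded side by side in the NK gene complex, so that receptors and their ligands are inherited together. Klrb1b encodes NKR-P1B, also called NKR-P1D in C57BL6 mice, an inhibitory receptor that signals through the phosphatase SHP-1 when it binds Clr-b, the product of Clec2d; most blood cells carry Clr-b, and its loss from a cell is a form of missing self that NK cells recognise. Klrb1c encodes NK1.1, the activating receptor that pairs with the FcR gamma chain and by which NK cells are identified in C57BL6 mice. Klrb1a encodes NKR-P1A, of the activating type. Klrb1f encodes NKR-P1F, usually grouped with the activating type, which binds Clr-g, the product of Clec2i.

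The clearest difference in the set was in the inhibitory receptor. Klrb1b was lower in every Rroid-deficient library than in any wildtype library, 2.83-fold in the fit, while its ligand gene Clec2d lay in overlapping ranges. Klrb1c was also lower in every deficient library, by a smaller margin of 1.26-fold. Klrb1a, Klrb1f and Clec2i overlapped between genotypes. No member passed the threshold of an adjusted p of 0.05 over all genes by edgeR (quasi-likelihood test, Benjamini-Hochberg adjustment). That test called 2 genes in all (0.0171% of those tested), so the values below are given as measurements and their errors.

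The promoters of the 4 receptor genes are shown because their longest shared runs of letters join them in 2 pairs. Klrb1b goes with Klrb1f, and Klrb1a with Klrb1c. Each is the stretch of 200 bases that ends just before the gene's start in RefSeq (build GRCm38.p6), read 5′ to 3′ on the gene's own strand; for Klrb1b and Clec2i, which list 2 starts, the first was used. Capitals mark the longest run of letters shared within a pair. In order, the stretches are chr6:128826316-128826515 (minus strand), chr6:129045701-129045900 (plus strand), chr6:128622935-128623134 (minus strand) and chr6:128788642-128788841 (minus strand).
Klrb1b: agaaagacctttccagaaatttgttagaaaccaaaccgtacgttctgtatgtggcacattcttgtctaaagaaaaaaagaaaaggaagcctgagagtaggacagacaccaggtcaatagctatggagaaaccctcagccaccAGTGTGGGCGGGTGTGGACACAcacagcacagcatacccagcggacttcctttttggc
Klrb1f: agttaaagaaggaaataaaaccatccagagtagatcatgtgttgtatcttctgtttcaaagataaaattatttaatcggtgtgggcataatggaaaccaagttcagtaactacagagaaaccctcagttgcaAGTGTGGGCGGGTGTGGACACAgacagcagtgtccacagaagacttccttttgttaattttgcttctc
Klrb1a: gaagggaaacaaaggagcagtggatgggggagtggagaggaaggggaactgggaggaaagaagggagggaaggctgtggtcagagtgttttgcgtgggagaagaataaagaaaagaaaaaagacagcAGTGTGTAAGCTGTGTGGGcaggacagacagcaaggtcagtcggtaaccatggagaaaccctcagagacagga
Klrb1c: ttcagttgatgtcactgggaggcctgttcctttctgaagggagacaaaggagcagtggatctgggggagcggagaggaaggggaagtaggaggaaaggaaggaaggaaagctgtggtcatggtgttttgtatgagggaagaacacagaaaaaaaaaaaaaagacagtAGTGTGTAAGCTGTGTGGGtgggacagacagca

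Klrb1b and Klrb1f shared a run of 22 bases and were 61.6% identical over the window when aligned end to end. Klrb1a and Klrb1c shared a run of 19 bases and were 58.3% identical. Among 27025 RefSeq promoters, 1 a gene, each run was found on the gene's strand in the 2 promoters of its pair alone. The runs were taken from these pairs before the search, so this count describes them and is no test of the pairing. Across the pairs, Klrb1a shared a run of 16 bases with Klrb1b and of 13 bases with Klrb1f, and Klrb1c shared 10 bases with Klrb1f. Klrb1b and Klrb1c, which were lower in the deficient libraries, shared 9 bases in a row and were 44.5% identical. The run shared by Klrb1a and Klrb1c lay at -73 to -55 in Klrb1a and at -33 to -15 in Klrb1c. Their windows are thus offset, and likeness between windows depends on the annotated starts. The letters CANNTG, the E-box that E proteins bind and a palindrome in its fixed letters, did not occur in these windows of Klrb1b and Klrb1a. They occurred 1 time in that of Klrb1c, 3 times in that of Klrb1f and 1 time each in those of Clec2d and Clec2i; 57.9% of all promoter windows of this length hold the letters. The T-box core GGTGTG, searched on both strands, occurred 1 time in Klrb1b and 2 times in Klrb1f and in none of the other 4 windows, against 13.2% of all promoters; the shared run itself holds the letters. The RUNX core TGTGGT, searched on both strands, occurred 1 time each in Klrb1a and Klrb1c and in no other member, against 11.3% of all promoters. These are matches of letters and not measured binding sites.

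The libraries held 5823626 to 9216430 reads assigned to genes. In each of them every member had at least 246 reads, well above the 0.322 to 0.489 CPM that 3 reads, the limit of a count of 0, were worth. Id2, the gene next to the element, had 38.9, 66.7 and 81.2 CPM in the deficient libraries and 468, 338 and 341 CPM in the wildtype libraries, and was lower in the deficient ones (log2 fold change -2.62, SE 0.30; edgeR adjusted p = 0.0308). Rroid itself was not analysed here. Levels are CPM, that is, reads scaled to a common library size with TMM factors. All 11 NK cell markers listed were tested, and Ncr1, which encodes NKp46, had 940 ± 61.5 CPM in deficient and 1015 ± 8.66 CPM in wildtype libraries (SD, n = 3 each). Deficient library 1 and wildtype library 1 stood apart with 5.57% and 5.63% of tested genes at 0, against 0.230% to 2.43% in the other 4. Without both of them the log2 fold change was -1.61 for Klrb1b and -0.47 for Klrb1c, against -1.50 and -0.33 with all libraries. Separate mice are not named as the source of each library, and p-values measure the spread between these libraries, which may be technical.

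Klrb1b had 278, 246 and 413 reads in deficient libraries 1 to 3, or 40.1, 40.1 and 57.1 CPM. In wildtype libraries 1 to 3 it had 626, 1589 and 792 reads, or 93.8, 171 and 125 CPM. The highest deficient library thus lay below the lowest wildtype library. The means were 45.8 ± 9.82 CPM in deficient and 130 ± 38.7 CPM in wildtype libraries (SD, n = 3 each). On the log2 scale the difference was -1.50 (SE 0.33), and its 95% interval was -2.23 to -0.77. In edgeR's fit over all genes its unadjusted p was 9.97e-04 and its adjusted p 0.569. In bulk RNA, fewer cells that express a gene and less RNA per cell cannot be told apart.

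Klrb1b passed in 2 of 14 alternative settings, both of them as lower in deficient libraries. DESeq2 on the same filtered genes gave an adjusted p of 0.00787, among 65 genes called (0.569%), of which 27 were lower in deficient libraries (0.236%). edgeR without a filter on low counts gave an adjusted p of 0.0105, among 98 calls (0.495%), 43 of them lower (0.217%). Over these settings the log2 fold change lay between -1.70 and -1.26 and the adjusted p between 0.00787 and 0.996. With limma-voom and sample quality weights, which called 0.0682% of genes, the adjusted p was 0.161. No fit with a library left out called the gene.

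Markers of other cell types were compared in the same libraries. The summed level of 11 T cell markers was 346 to 451 CPM in deficient and 171 to 266 CPM in wildtype libraries. It was higher in every deficient library, in the opposite direction to Klrb1b. Most of the sum was Trbc1 and Trbc2. Trbc1 had 162 ± 26.8 CPM in deficient and 139 ± 38.3 CPM in wildtype libraries, with overlapping ranges. Trbc2 had 111 ± 17.3 CPM in deficient and 51.4 ± 10.4 CPM in wildtype libraries. Of 5 tested T cell markers none passed in edgeR, and DESeq2 called Cd3g and Cd3d as higher. Cd3g had 63.4 ± 7.44 CPM in deficient and 6.22 ± 1.91 CPM in wildtype libraries, and Cd3d 49.2 ± 22.4 and 6.79 ± 1.85 CPM. Cd3e had 0, 0 and 0 reads in deficient and 0, 3 and 0 in wildtype libraries, and Cd8a and Cd6 had none in any library. Cd4 and Cd8b1 lay the other way, with 57 and 37 reads in wildtype library 1 and none in any other library. The summed level of 6 B cell markers was 318 to 611 CPM in deficient and 226 to 333 CPM in wildtype libraries, nearly all of it Ighm (442 ± 147 CPM in deficient and 268 ± 55.7 CPM in wildtype libraries), with Pax5 at 0 in every library. Cd79a, part of the B cell receptor, had 2.72 ± 3.37 CPM in deficient and 4.13 ± 3.31 CPM in wildtype libraries. The summed level of 9 myeloid and dendritic cell markers was 421 to 471 CPM in deficient and 431 to 518 CPM in wildtype libraries, mostly Itgax (406 ± 30.3 CPM in deficient and 463 ± 44.3 CPM in wildtype libraries), with Cd14 and Flt3 at 0. Itgax is also expressed by NK cells, and the sum hides Cd68, a macrophage marker that lay the other way. Cd68 had 30.4, 21.0 and 19.6 CPM in deficient libraries, against 2.25, 11.3 and 1.10 CPM in wildtype libraries. Every deficient library lay above every wildtype library, with a difference of 2.27 on the log2 scale (SE 0.90; adjusted p = 0.914 in edgeR).

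The 4 neutrophil markers summed to at most 0.326 CPM in deficient and 0.107 CPM in wildtype libraries, and the 5 erythroid markers found summed to 1.47 to 4.76 CPM in deficient and 1.73 to 4.40 CPM in wildtype libraries, mostly Hbb-bs, a haemoglobin gene with 2.16 ± 0.958 CPM in deficient and 2.02 ± 1.51 CPM in wildtype libraries. The 6 markers of helper-like innate lymphoid cells summed to 101 to 113 CPM in deficient and 78.0 to 112 CPM in wildtype libraries. Among them Cxcr6, a chemokine receptor gene, had 1.34 ± 1.11 CPM in deficient and 7.43 ± 7.35 CPM in wildtype libraries, and Il7r, the interleukin-7 receptor gene, had 36.4 ± 9.20 CPM in deficient and 22.3 ± 9.79 CPM in wildtype libraries, both with overlapping ranges. The summed level of the 11 NK cell markers was 9797 to 10684 CPM in deficient and 11352 to 13800 CPM in wildtype libraries, and DESeq2 called 1 of them, Gzma, as lower. Gzma, the granzyme A gene, had 2560 ± 217 CPM in deficient and 4501 ± 866 CPM in wildtype libraries, and Klrk1, the NKG2D gene, had 747 ± 25.7 CPM in deficient and 958 ± 165 CPM in wildtype libraries. Gzma had the largest difference in mean CPM of the 11, and so weighed most in the difference between the sums. Of the 11 log2 fold changes, 4 were positive and 7 negative. Il2rb, a positive one, had 2915 ± 299 CPM in deficient and 2712 ± 484 CPM in wildtype libraries, with overlapping ranges. The part of these differences in the Klrb1b value was not tested.

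Klrb1c, the NK1.1 gene, was the most abundant member. It had 899, 756 and 732 CPM in the deficient libraries, against 954, 1051 and 997 CPM in the wildtype libraries. The ranges did not overlap, but the gap between deficient library 1 and wildtype library 1 was small beside the spread of the deficient libraries. The means were 796 ± 90.3 CPM in deficient and 1001 ± 48.9 CPM in wildtype libraries (SD, n = 3 each). On the log2 scale the difference was -0.33 (SE 0.15), and its 95% interval was -0.66 to -0.00066. In edgeR's fit over all genes its unadjusted p was 0.0496 and its adjusted p 0.914. Of all genes tested, 6.33% had every deficient library below every wildtype library, and Klrb1b and Klrb1c were the 2 of 6 members that did; 0 members, against 6.03% of all genes, lay the other way. These 2 members were also those with an unadjusted p under 0.05 in edgeR, as were 5.29% of all genes, and 2.52% with a negative fold change.

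Klrb1a, the NKR-P1A gene, showed the influence of a single library. Its deficient libraries were close together at 124, 130 and 122 CPM. In wildtype library 1 it reached 254 CPM, while wildtype libraries 2 and 3 had 114 and 109 CPM, below every deficient library. The log2 fold change was -0.34 with all libraries (SE 0.33, 95% interval -1.09 to 0.40; edgeR adjusted p = 0.936) and 0.15 without wildtype library 1 (edgeR adjusted p = 0.999, with 0.764 to 0.999 over all alternatives). The direction of Klrb1a thus rested on that library. Fcer1g, the FcR gamma chain gene, was also highest there at 1482 CPM. It had 867 and 878 CPM in the other wildtype libraries and 779, 860 and 868 CPM in the deficient ones. Klrb1c, whose product pairs with that chain, was lowest of the wildtype libraries in library 1, at 954 CPM against 1051 and 997 CPM. A link between Klrb1a and Fcer1g was not tested.

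Klrb1f, the NKR-P1F gene, had 295, 312 and 326 CPM in the deficient libraries, which fell inside the wildtype range of 229, 367 and 271 CPM. Its log2 fold change was 0.11 (SE 0.21; edgeR adjusted p = 0.958), and the 95% interval ran from 0.774 to 1.50 times the wildtype level. A fall of the size measured for Klrb1b lies outside that interval. Without wildtype library 1 the estimate was -0.047.

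The ligand genes differed less between genotypes than among libraries of 1 genotype. Clec2d, the Clr-b gene, had 80.1, 117 and 102 CPM in the deficient libraries and 101, 88.5 and 64.0 CPM in the wildtype libraries. Its log2 fold change was 0.24 (SE 0.30; edgeR adjusted p = 0.938), with a 95% interval of 0.744 to 1.86 times the wildtype level. Clec2i, the Clr-g gene, had 44.8, 57.3 and 62.4 CPM in the deficient libraries and 66.7, 33.5 and 47.5 CPM in the wildtype libraries. Its log2 fold change was 0.16 (SE 0.38; edgeR adjusted p = 0.968), with an interval of 0.616 to 2.02 times the wildtype level, and -0.059 without wildtype library 2. The ranges of both ligand genes overlapped between genotypes, and changes within these intervals were not excluded. The intervals are not limits of detection, since Klrb1b at 2.83-fold was not called by edgeR either. Over the 6 members, 3 log2 fold changes were positive and 3 negative, with a median of -0.11, against 0.02 over all genes tested.

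**Figure D1:**
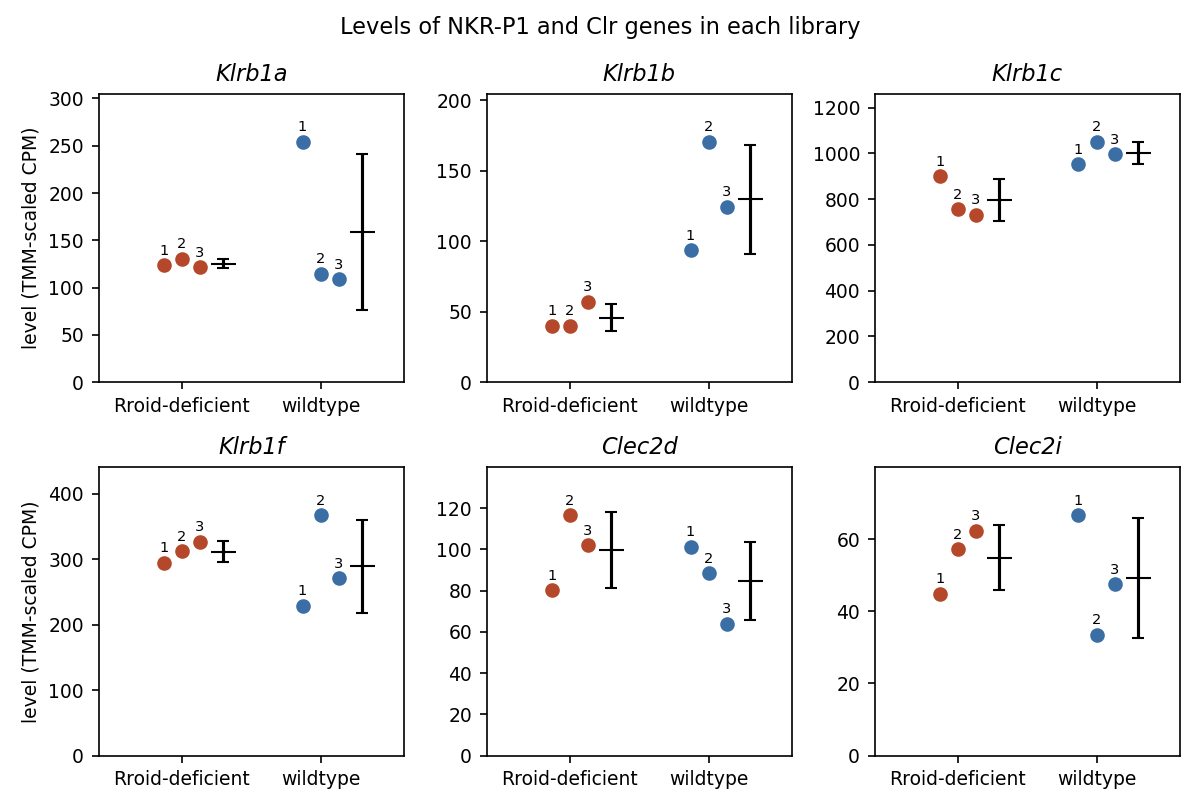
Level of each member in TMM-scaled CPM by genotype, with points numbered by library and the mean ± SD (n = 3) as bars to their right. Klrb1b separates the genotypes, with deficient libraries at 40.1 to 57.1 CPM and wildtype libraries at 93.8 to 171 CPM; Klrb1c separates them narrowly, and the other 4 genes overlap.

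**Figure D2:**
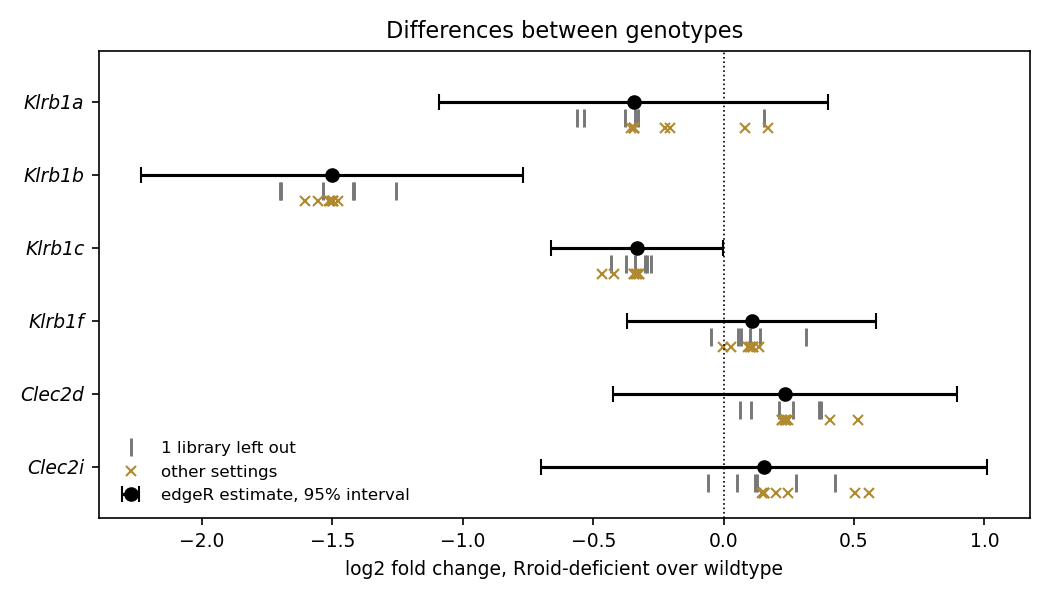
Log2 fold change of each member, deficient over wildtype, with its 95% interval (edgeR); ticks are fits without 1 library and crosses the other settings. Klrb1b stayed between -1.70 and -1.26, whereas ticks or crosses of Klrb1a, Klrb1f and Clec2i lay on both sides of 0.

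On a scale of CPM per kilobase of exonic length, by which genes can be roughly compared, the order of the receptors was led by NK1.1. The lengths come from a GRCm38 annotation, and the annotation used for counting is not stated. The length divided by may thus differ from the length counted, which bears on the ranks, shares and multiples between genes below. In deficient libraries the mean levels per kilobase were 269 for Klrb1c, 154 for Klrb1f, 82.2 for Clec2d, 78.6 for Klrb1a, 20.5 for Klrb1b and 17.6 for Clec2i. Klrb1c and Klrb1f stood apart from their neighbours in this order, but the ranges of Clec2d and Klrb1a overlapped, as did those of Klrb1b and Clec2i. In wildtype libraries the means per kilobase were 338 for Klrb1c, 143 for Klrb1f, 99.8 for Klrb1a, 69.8 for Clec2d, 58.2 for Klrb1b and 15.8 for Clec2i. There the ranges of each neighbouring pair from Klrb1f down to Klrb1b overlapped, and Klrb1b lay above Clec2i in every library. Among 11262 tested genes with a known length, Klrb1b ranked 2018 in deficient and 561 in wildtype libraries, and Klrb1c ranked 106 and 82.

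The inhibitory share of the receptor transcripts was smaller in the deficient libraries. Klrb1b made up 3.30%, 3.54% and 5.02% of the summed levels per kilobase of the 4 receptors in deficient libraries, against 6.61%, 11.2% and 9.41% in wildtype libraries. Set against Klrb1c alone, its level per kilobase was 7.78% ± 2.31 of that of Klrb1c in deficient and 17.1% ± 4.27 in wildtype libraries (SD, n = 3 each). Klrb1f, set against the same gene, was at 57.9% ± 8.91 of Klrb1c in deficient and 41.9% ± 8.24 in wildtype libraries. The share of Klrb1c in the 4 receptors was 51.4% ± 3.82 in deficient and 53.0% ± 3.19 in wildtype libraries. These shares are descriptions of chosen genes and were given no test.

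The receptor sum itself was also lower, at 545, 509 and 510 CPM per kilobase in deficient libraries, against 637, 685 and 594 in wildtype libraries. Without Klrb1b the sums were 527, 491 and 485 in deficient libraries, against 595, 608 and 539 in wildtype libraries. Klrb1a made up 25.0% of the 4-receptor sum in wildtype library 1, against 10.5% and 11.5% in wildtype libraries 2 and 3. The place of wildtype library 1 above the deficient libraries thus rested in part on Klrb1a, and the sums were given no test. Ligand and receptor of the inhibitory pair stood in a different proportion in each genotype. The level per kilobase of Clec2d was 3.67, 5.34 and 3.29 times that of Klrb1b in deficient libraries, against 1.99, 0.952 and 0.944 times in wildtype libraries. The level per kilobase of Clec2i relative to that of Clec2d was 21.6% ± 2.34 in deficient and 23.1% ± 7.42 in wildtype libraries (SD, n = 3 each).

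**Figure D3:**
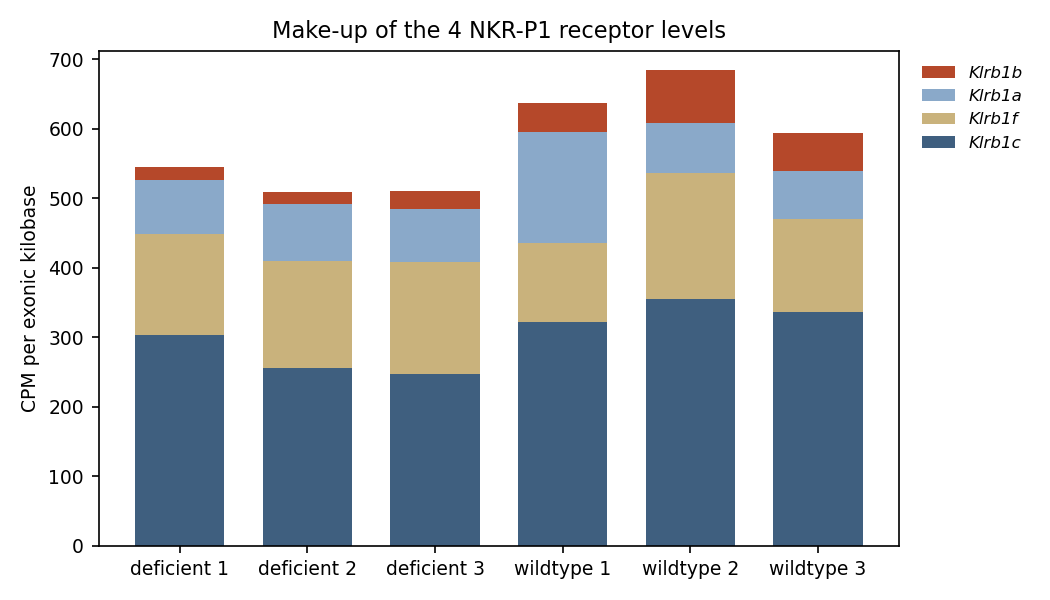
Levels of the 4 NKR-P1 receptor genes per library, stacked, in CPM per exonic kilobase. Klrb1c makes up 48.4% to 56.6% of each bar, and the Klrb1b segment is 18.0 to 25.6 in deficient and 42.1 to 76.6 in wildtype libraries.

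The receptor genes are related enough that shared reads had to be considered. In their longest annotated coding sequences, Klrb1a and Klrb1b were 82.3% identical, Klrb1a and Klrb1c 77.6%, Klrb1b and Klrb1c 73.2%, and Clec2d and Clec2i 73.5%. At the read length of 100 bases little of this was shared. Of 1784 windows of that length in the Klrb1a transcripts, 9 (0.504%) also occurred in Klrb1c, and 0 of 2215 in Klrb1f and 0 of 1114 in Clec2d occurred in another gene. Klrb1b shared no window with another receptor gene, but 540 of its 2422 windows (22.3%) occurred in Gm44511, an annotated gene model that spans Klrb1b and Klrb1c and also holds 321 of 3053 Klrb1c windows. Gm44511 was not analysed here. Clec2i overlaps BC035044 on the opposite strand; BC035044 had 191, 216 and 225 reads in deficient libraries and 247, 369 and 227 reads in wildtype libraries. Whether counting used strand is not stated, so reads of that overlap are uncertain.

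The other NKR-P1 and Clr genes had low counts or none in these cells. Of 12 names listed, 8 matched a gene and 2 were tested, of which none passed. Klrb1, for which RefSeq lists the name NKR-P1G, had 8.65, 4.89 and 3.18 CPM in deficient and 5.09, 8.70 and 10.9 CPM in wildtype libraries, with overlapping ranges (difference of -0.56 on the log2 scale, SE 0.87; adjusted p = 0.944 in edgeR). The pseudogene Klrb1-ps1 had 1.62 ± 1.48 CPM in deficient and 1.36 ± 0.435 CPM in wildtype libraries. Clec2e had 1, 4 and 1 reads in deficient and 12, 6 and 3 in wildtype libraries. Clec2f, Clec2j and Clec2l had no read in any library, and Clec2g and Clec2h had at most 3 reads in any library. In the GRCm38 annotation 36 genes lie from Klrb1a to Clec2d, of which 20 matched a counted gene and 11 were tested: the 6 members, Klrb1, Klrb1-ps1, BC035044 and the pseudogenes Gm5884 and BC064078. BC064078, named after its values were seen, had 55, 2 and 58 reads in deficient and 255, 202 and 43 in wildtype libraries. These ranges overlapped (difference of -2.03 on the log2 scale, SE 1.05; adjusted p = 0.925 in edgeR), so Klrb1b was not the only gene of the stretch with a large negative estimate.

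Genes that carry the receptors' signals were measured beside them. Of 19 listed, 18 were tested and none passed in either direction; 11 log2 fold changes were positive and 7 negative, with a median of 0.11. Ptpn6, which encodes SHP-1, the phosphatase that NKR-P1B recruits, had 141, 98.7 and 99.3 CPM in deficient libraries, against 73.4, 42.1 and 70.6 CPM in wildtype libraries. Every deficient library lay above every wildtype library, as for 1 of the 18 genes and 6.03% of all genes, and the difference on the log2 scale was 0.86 (SE 0.32; adjusted p = 0.906 in edgeR). Inpp5d, which encodes the lipid phosphatase SHIP-1, had 206 ± 43.5 CPM in deficient and 150 ± 33.1 CPM in wildtype libraries. Its ranges overlapped. Lck, the kinase that binds the tail of activating NKR-P1 receptors, had 352 ± 67.5 CPM in deficient and 317 ± 109 CPM in wildtype libraries.

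Among other lectin-like receptor genes, few negative estimates came close to that of Klrb1b. Of 29 listed, 19 were tested and none passed; 11 log2 fold changes were positive and 8 negative, with a median of 0.21. Of these 19, 4 lay below in every deficient library (6.33% of all genes did) and 4 lay above (6.03% of all genes). Klrb1b had the lowest estimate of these 19 genes and the 6 members. Klrg1, an inhibitory receptor of mature NK cells, was next with 27.7, 49.6 and 47.0 CPM in deficient libraries, against 145, 77.2 and 86.8 CPM in wildtype libraries. Its difference on the log2 scale was -1.31 (SE 0.38; adjusted p = 0.895 in edgeR). Klra9, a Ly49 receptor gene, had 97.8 ± 18.5 CPM in deficient and 157 ± 16.3 CPM in wildtype libraries. The intervals of Klrg1 and Klra9 overlap that of Klrb1b, and the differences between these genes were not tested. Cd69 lay the other way, with the largest positive estimate of the 19 at 1.39 (SE 0.52, edgeR adjusted p = 0.906). It had 46.3 ± 11.5 CPM in deficient and 17.6 ± 8.27 CPM in wildtype libraries, and was higher in every deficient library.

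**Figure D4:**
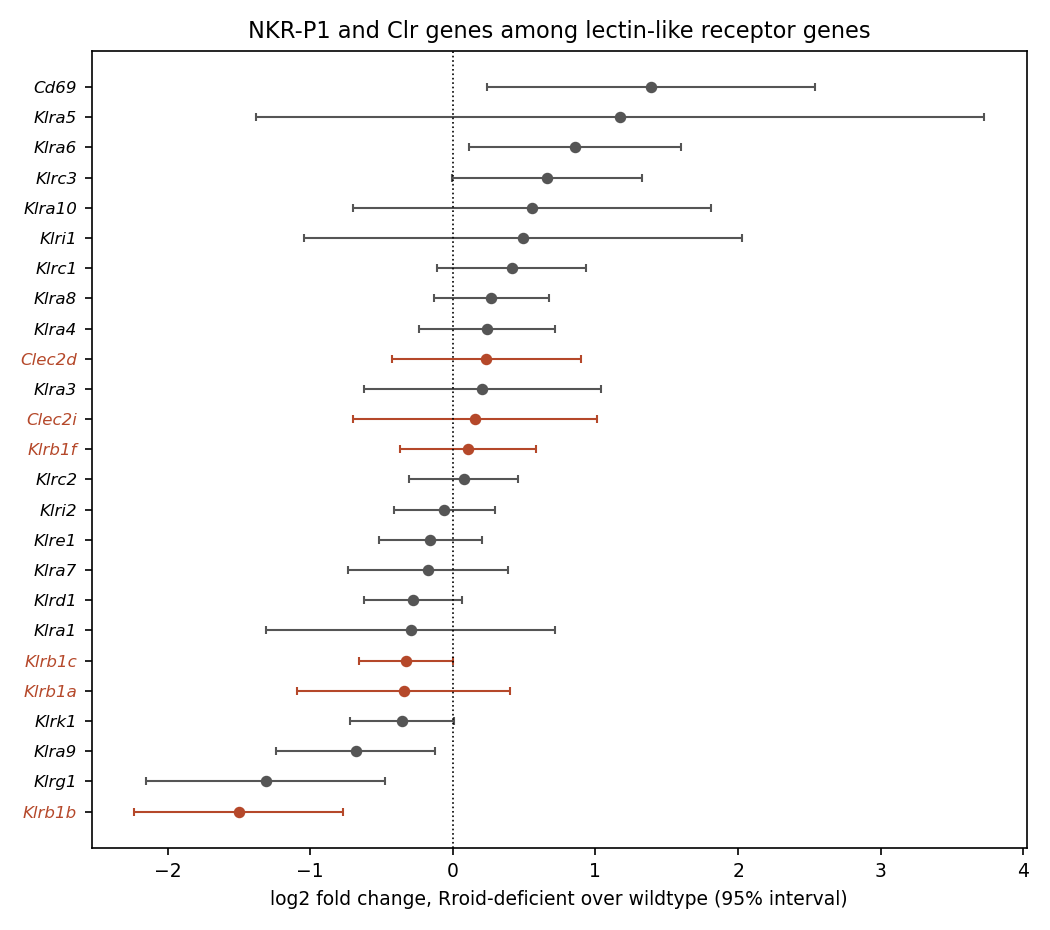
Log2 fold change, deficient over wildtype, with 95% intervals (edgeR) for the 6 members (red) and 19 other tested lectin-like receptor genes (grey), sorted by the estimate. Klrb1b is lowest at -1.50, followed by Klrg1 at -1.31, and the other 5 members lie between -0.34 and 0.24.

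Genes whose pattern over the 6 libraries was most like that of Klrb1b were sought among 6154 genes that averaged 20 CPM or more, by the mean absolute difference in log2(CPM + 1) after each gene was centred on its own mean. The nearest were Apol7e, an apolipoprotein L family gene, at 0.18, 4930404I05Rik at 0.22 and Necap2, an endocytosis adaptor gene, at 0.23. Apol7e had 21.6, 25.9 and 38.6 CPM in deficient libraries, against 57.2, 74.6 and 65.1 CPM in wildtype libraries. Klrb1c was nearest to Klrd1, which encodes CD94, a lectin-like receptor of the same gene complex, at 0.06. Klrd1 had 483, 427 and 459 CPM in deficient libraries, against 545, 547 and 566 CPM in wildtype libraries. Next to it came the nucleoporin gene Nup188 and the translation gene Paip2, both at 0.08. The ranking is a description of these libraries.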

How the data were processed

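RNA from CD27+ CD11b+ NK cells was taken up in TRIzol, its cDNA was amplified (Ovation RNA-Seq System V2), and KAPA libraries were read as single 100-base reads, per the labels' protocols. The submitters' processing notes name the builds NCBIM37 and mm9 and the tools HTSeq 0.6.1, TopHat2 2.1.0, Trimmomatic 0.33 and DESeq2. The annotation and strand setting are not stated there. The deposited files hold raw counts, whole reads per Ensembl gene and not normalized. The 5 rows that name no gene held 80.0% to 84.4% of all counts in a library and were left out. Of counts that were assigned, ambiguous or in no gene, those in no gene were the larger part. They made up 76.3% to 79.1% in deficient and 72.8% to 78.0% in wildtype libraries, and the reason was not tested. Symbols matched 32919 of 37991 genes.

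Counts were filtered with filterByExpr, scaled by TMM and tested between genotypes with edgeR 4.0.16 (quasi-likelihood, Benjamini-Hochberg over 11724 genes, threshold 0.05), after a check on simulated counts. DESeq2 1.42.0 and limma 3.58.1 were alternatives, as were other scaling, no filter, a stricter filter, leaving out libraries and a replicate block. CPM per kilobase used the union of exons in GENCODE M21. Assigned reads ranged from 5823626 to 9216430 per library, and the common biological coefficient of variation was 0.661, so small differences were beyond these 6 libraries. Every pair of libraries differed by more than sampling noise (lowest chi-square per degree of freedom 19.2).

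The members and lists were chosen with earlier results of these data known. All 6 members are named; of each list, up to 4 genes that passed or else the 2 of smallest p; and the 3 genes nearest to Klrb1b and Klrb1c. Id2 and leading markers are named as checks, and other genes were named after their values were seen. The reasons were position, reads at 0, or role (Fcer1g and Lck). For Trbc1, Trbc2, Cd4, Cd8b1, Il2rb and Cd69 the reason was direction or part in a sum.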

Additional observations from a re-analysis of the deposited data

How the results depend on the processing

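Klrb1b, Klrb1c and Clec2d kept their direction in all 14 alternatives. Klrb1b passed in DESeq2 (log2 fold change -1.50, adjusted p = 0.00787) and in edgeR without a filter (-1.51, adjusted p = 0.0105), over a range of adjusted p from 0.00787 to 0.996. The number of genes called was 2 in edgeR (620 at an unadjusted p under 0.05), 98 in edgeR with no filter (1471), 65 in DESeq2 (878), 1 in limma-voom (634) and 8 in limma-voom given quality weights (705). With any 1 library left out edgeR called 0 genes, with 508 to 966 at an unadjusted p under 0.05, and without both libraries numbered 1 it called 0, with 767. The cause of these differences was not tested.

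Klrb1a turned positive with quality weights (0.084) and without both libraries numbered 1 (0.17), and ran from -0.56 to 0.15 with 1 library left out, positive without wildtype library 1. Klrb1f was -0.0035 without both libraries numbered 1 and ran from -0.047 to 0.32, negative without wildtype library 1. Clec2i ran from -0.059 to 0.43, negative without wildtype library 2. The ranges were -1.70 to -1.26 for Klrb1b, -0.43 to -0.28 for Klrb1c and 0.06 to 0.37 for Clec2d. Libraries with the same replicate number did not deviate together (r = 0.01, -0.02 and 0.04). With 3 libraries a genotype this cannot exclude a pairing or a shared preparation. Both libraries numbered 1 had the largest shares of tested genes at 0 (5.57% and 5.63%). With the replicate block edgeR called 0 genes, with 455 at an unadjusted p under 0.05, and Klrb1b was at -1.48 (adjusted p = 0.961).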
